A study of Saccharomyces cerevisiae with 14 samples.

Results

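The tail of yeast cofilin, Arg-Ser-Gly-Val at positions 2 to 5, was followed together with all of its single substitutions at positions 4 and 5 in a library of 16000 tail sequences. The set holds the 78 variants with Arg2, with Ser or Thr at position 3, and with either any residue at position 4 before Val5 or Gly4 before any residue at position 5. A variant is named by its residues at positions 2 to 5, so RSGV is the yeast tail and RTGV is the same tail with Thr3. Around each of these 2 parent sequences there are 19 substitutions at position 4 and 19 at position 5, which gives 39 variants with Ser3 and 39 with Thr3. The protein behind the tail was human cofilin-1 with a His tag, so only the tail is that of yeast Cof1.

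The library was expressed from the constitutive GPD promoter in the TeTO7-COF1 strain of Saccharomyces cerevisiae, whose own COF1 gene (YLL050C) is switched off by doxycycline (DOX). All cells also carried FLAG-tagged full-length human LIMK1 under the GAL1 promoter. In each of 3 screens, 1 library was made from cells in 2% glucose without DOX (T-1) and 1 after transfer to 2% raffinose with 10 mg/L DOX (T0). From T0 the culture was split, and 3 later libraries (T1, T2 and T3) were made in 2% glucose with DOX and 3 in a mix of 2% raffinose and 1% galactose with DOX, in which the GAL1 promoter is on. The screens were grown from frozen aliquots of 1 transformed population, so a p-value measures the spread between screens and not between transformations. No culture received galactose without the LIMK1 plasmid, so the kinase and the change of sugar cannot be told apart. The Thr3 variant is given beside each Ser3 variant, but some of these pairs also differed in glucose.

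Cofilin binds and severs actin filaments, and budding yeast needs it to live. In animals LIM kinases phosphorylate cofilin on Ser3 of its N-terminal tail, which stops it from binding actin, and budding yeast has no LIM kinase of its own. The tail lies at the surface that touches actin. In such a screen a variant that can stand in for Cof1 lets its cells grow after COF1 is switched off.

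The coding sequences of the variants that the results turn on are printed below from codon 2 to codon 5, 5′ to 3′. Capitals mark each codon that differs from RSGV. The first 4 are the parents and their Met5 forms, which rose most in glucose among the substitutes:
RSGV: cgtagcggtgtt
RTGV: cgtACCggtgtt
RSGM: cgtagcggtATG
RTGM: cgtACCggtATG
The next 4 carry a large hydrophobic residue at position 4 beside Ser3 and had LIMK1 effects near 0:
RSFV: cgtagcTTCgtt
RSWV: cgtagcTGGgtt
RSLV: cgtagcCTGgtt
RSIV: cgtagcATCgtt
The last 8 are pairs that differ only at codon 3. Relative to total reads they changed in opposite directions in glucose. RTNV did not pass the test, and RSSV and RTNV turned positive under other scalings given below:
RSTV: cgtagcACTgtt
RTTV: cgtACCACTgtt
RSSV: cgtagcTCTgtt
RTSV: cgtACCTCTgtt
RSNV: cgtagcAACgtt
RTNV: cgtACCAACgtt
RSGY: cgtagcggtTAC
RTGY: cgtACCggtTAC

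Libraries held between 7185497 and 61265998 reads (median 23863730). Levels are given as reads per 1000000 reads of the library (RPM). At T0 the 78 variants lay between 1.40 and 166 RPM (median 49.2), or 25 to 4897 reads. Across all 24 libraries 14 of their 1872 values were 0 reads, in 9 variants. Together the 78 variants took 0.416% ± 0.0274 (SD, n = 3 screens) of all reads at T0, 1.00% ± 0.0340 at T2 in glucose and 1.18% ± 0.0990 at T3 in galactose. The Ser3 variants went from 0.182% ± 0.00667 at T0 to 0.438% ± 0.00791 at T3 in glucose but to 0.193% ± 0.0238 at T3 in galactose, where the Thr3 variants reached 0.983% ± 0.119. Every value is a share of the reads, so a falling share does not show that the cells stopped dividing. Fewer cells of a variant and fewer plasmids per cell cannot be told apart.

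Before the glucose and galactose cultures began, the move to raffinose with DOX had already shifted some of these variants. Between T-1 and T0, 12 of the 78 became more abundant (24.2% of all 16000 variants did) and 39 less abundant (33.1% of all), by edgeR at an adjusted p under 0.05. RSHV fell furthest, from 75.9, 62.7 and 64.9 RPM at T-1 in screens 1, 2 and 3 to 9.92, 16.7 and 5.94 at T0, a log2 change of −2.73 (SE 0.24, adjusted p = 8.0e-27). RSNV went from 55.5, 58.8 and 51.2 to 11.7, 27.1 and 7.62, or −2.01 (SE 0.25, adjusted p = 5.1e-14). In both variants every T0 value lay below every T-1 value. RSGN rose most, from 31.0, 29.0 and 31.9 to 107, 65.0 and 96.0 (1.51, SE 0.19, adjusted p = 4.9e-14). The 3 variants do not line up with what followed in glucose, where RSNV rose and RSHV and RSGN fell. The parent RSGV changed by −0.92 (SE 0.18, adjusted p = 1.1e-06) in this step and RTGV by −0.31 (SE 0.16, adjusted p = 0.0903).

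Growth in glucose with DOX asks which tails can replace Cof1. From T0 to T2, 36 of the 78 variants rose (20.9% of all variants did), 35 fell (70.0% of all) and 7 did not pass the test. Their median log2 change was −0.27, against −4.15 over all 16000 variants. The split depends on the scaling, since most of the library loses share. With TMM factors it was 44 higher and 23 lower, with DESeq2 size factors 47 and 14, and with scaling to variants that carry a charged residue at position 5 it was 52 and 10. These scalings move the median of all variants up by 2.88, 3.99 and 4.45 on the log2 scale, so rose and fell below mean relative to total reads. Single variants were checked under these scalings only if named by the rule given in the processing section. RSHV and the other variants that fell were not checked. Of the checked variants that fell, RSAV, RSSV and RTGF turn positive under all of these scalings. RSGD, RSPV, RTEV, RTGS and RTPV do so under all but TMM, and RTGE and RTGR under the last of them only. RTNV, whose fall did not pass the test, also turns positive under all of them.

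The yeast tail itself rose from 42.1, 48.5 and 50.2 RPM at T0 to 434, 586 and 512 at T2, and every T2 value was above every T0 value. That is 10.9-fold ± 1.05 (SD, n = 3) and a log2 change of 3.44 (SE 0.24, adjusted p = 5.2e-44). Ordered by the log2 of the mean fold, RSGV was at rank 27 of the 16000 variants and at the top of this set. RTGV rose from 79.9, 83.6 and 66.7 to 656, 603 and 581, or 8.04-fold ± 0.766, at rank 208.

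At position 4 beside Ser3, large hydrophobic residues and Cys gained share and most polar and charged ones lost it. Of the 19 substitutes 9 rose: all 3 aromatic residues (Phe, Trp, Tyr), all 4 aliphatic ones (Leu, Ile, Met, Val), Cys and Asn. The other 10 fell, namely Ala, Ser, Thr, Pro, Gln, both acidic and all 3 basic residues. RSFV went from 23.4, 48.1 and 19.6 RPM at T0 to 178, 195 and 251 at T2, 8.17-fold ± 4.42, the highest fold of this scan. RSWV went from 30.4, 48.6 and 28.4 to 229, 252 and 191, 6.48-fold ± 1.19. In both, the T2 values of the screens lay above all T0 values. The log2 changes of the other hydrophobic residues were 2.11 (SE 0.23) for Tyr4, 2.05 (SE 0.26) for Leu4, 1.67 (SE 0.22) for Ile4, 1.38 (SE 0.28) for Met4 and 1.22 (SE 0.54) for Val4. Cys4 rose by 2.12 (SE 0.30). The T0 level of Val4 was already reduced, at 23.2, 35.5 and 26.1 RPM against 80.0, 73.3 and 72.4 at T-1. At T2 it was at 47.8, 58.1 and 99.1, above its T-1 level in screen 3 only.

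Asn4 was apart from the other polar residues. RSNV rose from 11.7, 27.1 and 7.62 to 101, 76.4 and 51.3 RPM (2.46, SE 0.58, adjusted p = 2.6e-05), but its T0 level was already reduced. Measured from T-1, where it was at 55.5, 58.8 and 51.2, its log2 change to T2 was 0.42 and did not pass the test. Gln4, with a side chain longer by 1 methylene group, gave the largest loss of the position 4 scan by mean fold. RSQV fell from 119.8, 166 and 134 to 3.74, 4.47 and 1.46, a log2 change of −5.55 (SE 0.52, adjusted p = 4.0e-25).

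Small residues in place of Gly4 lost share with Ser3. RSAV fell from 63.9, 29.6 and 55.3 to 12.6, 4.52 and 7.84 RPM (−2.62, SE 0.67, adjusted p = 1.0e-04) and RSSV from 55.4, 37.5 and 41.0 to 2.96, 12.3 and 6.59 (−2.80, SE 0.72, adjusted p = 1.1e-04). No T2 value of either reached its lowest T0 value. The loss of RSSV was −2.12 without screen 1 and then did not pass the test. RSTV fell further, from 129, 77.3 and 95.9 to 7.20, 4.73 and 1.70 (−4.64, SE 0.59, adjusted p = 2.0e-14). Charged residues gave log2 changes of −5.33 (Asp4), −4.51 (Glu4), −4.71 (Lys4), −5.54 (Arg4) and −3.08 (His4), with SE between 0.71 and 0.81. Pro4, which restricts the backbone, gave −3.07 (SE 0.74).

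With Thr3, Ala, Ser, Thr and His at this position also rose, all of which fell with Ser3. Of the 19 substitutes 12 rose, 2 fell (Pro and Glu) and 5 did not pass the test (Asn, Gln, Asp, Lys and Arg). The 12 were these 4 and the aliphatic and aromatic residues and Cys. Counted from T0, RTMV was highest of the 19, from 51.7, 125 and 83.5 RPM at T0 to 478, 517 and 463 at T2, 6.30-fold ± 2.64. Its T0 level was already reduced from 132, 168 and 155 RPM at T-1, which enters this fold. RTCV went from 86.1, 139 and 85.1 to 580.5, 588 and 608 (6.04-fold ± 1.57) and RTLV from 63.3, 79.8 and 31.6 to 288, 292 and 290.4 (5.80-fold ± 2.98). All their T2 values were above all their T0 values, and the 3 folds lay within 1 SD of each other. RTFV went from 48.7, 80.1 and 61.6 to 253, 273 and 204 (1.96, SE 0.26). The residues that fell were Pro4 (−3.34, SE 0.66, adjusted p = 6.5e-07) and Glu4 (−3.21, SE 0.59, adjusted p = 6.2e-08), and the order within them does not exceed their SE. RTTV rose from T0 (1.69, SE 0.40, adjusted p = 2.8e-05) but from T-1 its change was 0.35 and did not pass the test. RTHV was also reduced at T0, with 26.1, 39.8 and 27.5 RPM against 75.8, 64.9 and 73.2 at T-1. At T2 it was at 107, 50.2 and 111, below its T-1 level in screen 2.

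At position 5 fewer substitutes rose than at position 4, and fewer rose with Thr3 than with Ser3. With Ser3, 8 of 19 substitutes rose, namely Met, Ile, Thr, Cys, Tyr, Ala, Leu and Phe, 10 fell and Ser did not pass the test. With Thr3, 5 of 19 rose, namely Met, Thr, Ile, Cys and Leu, 13 fell and Ala did not pass the test. All charged residues, both amides, Pro, Gly and Trp at position 5 fell beside either residue at position 3.

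Among the residues that the study lists at position 5 of natural cofilins, namely Val, Met, Leu, Ile and Thr, all 5 rose beside either residue at position 3. RSGM rose from 23.5, 38.6 and 26.7 RPM at T0 to 331, 259 and 259 at T2, 10.2-fold ± 3.70 and rank 48. RTGM rose from 49.7, 77.7 and 56.1 to 718, 596 and 546, 10.6-fold ± 3.47 and rank 34. The folds of RSGV, RSGM and RTGM differed by less than the spread between screens. Ile5 gave 3.06 (SE 0.31) with Ser3 and 2.54 (SE 0.23) with Thr3, and Thr5 2.48 (SE 0.39) and 3.12 (SE 0.24). Leu5 was lower, at 1.58 (SE 0.33) and 2.12 (SE 0.59), and Cys5 was at 2.39 (SE 0.52) and 2.31 (SE 0.27). The rise of RTGL was 1.66 without screen 1 and that of RSGA (Ala5, 1.69, SE 0.67) 1.54 without screen 1 and 1.67 without screen 2, and these did not pass the test. Measured from T-1, RSGA changed by −0.10.

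The lowest variant of the set was RSGK, with Lys5. It fell from 77.1, 76.9 and 70.9 RPM at T0 to 1.15, 1.18 and 0.312 at T2 (−6.56, SE 0.75, adjusted p = 1.4e-17), which put it at rank 15963. RSGH went from 37.6, 51.7 and 34.0 to 1.07, 0.588 and 0.382 (−6.01, SE 0.84) and RSGG, with Gly at both positions, from 63.3, 30.6 and 39.6 to 0.987, 0.996 and 0.208 (−6.06, SE 0.84). In all 3 variants every T2 value lay far below every T0 value. Beside Thr3 the lowest were RTGD at −5.73 (SE 0.74), RTGK at −5.63 (SE 0.84) and RTGY at −5.58 (SE 0.56). Glu5 gave −5.09 (SE 0.81) with Ser3 and −4.21 (SE 0.78) with Thr3, with values per screen of −2.43, −3.43 and −7.67 for RTGE, which spread widely.

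Across the 20 residues the glucose change at position 5 followed the Kyte-Doolittle hydropathy of the side chain, with Pearson's r of 0.82 for Ser3 and 0.84 for Thr3 (Spearman's rho 0.72 and 0.77). At position 4 r was 0.64 and 0.57 (rho 0.60 and 0.65). The Ser3 and Thr3 scans correlated with r of 0.83 over the 20 residues of position 5 and 0.52 over those of position 4. The points are means over the same 3 screens and share their libraries and totals, so these are descriptions.

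No substitution passed the test as better than its parent in glucose, as in the library at large. Set against RSGV or RTGV within each screen (limma on 1 value per screen), 0 of 76 substitutes were higher (0% of all other library variants, each compared with the parent of the same residue 3), 60 were lower (91.0% of all) and 16 did not pass the test. At an unadjusted p under 0.05 there were also 0 higher. RSGV and RTGV were themselves at ranks 27 and 208 of the library, so few variants could lie above them. The 16 were Phe4, Trp4, Asn4, Met5, Ile5 and Thr5 with Ser3, and Leu4, Met4, Cys4, Ser4, Tyr4, Met5, Thr5, Ile5, Cys5 and Leu5 with Thr3. Their differences ran from −0.99 (RSNV, SE 0.49) to 0.35 (RTGM, SE 0.41), so differences of that size were not detectable with 3 screens. Leu4 minus the parent was −1.39 (SE 0.40, adjusted p = 0.0122) beside Ser3 and −0.58 (SE 0.43, adjusted p = 0.225) beside Thr3. Ala4 gave −6.06 (SE 0.40, adjusted p = 4.1e-06) and −1.11 (SE 0.40, adjusted p = 0.0297), and Pro4 −6.49 (SE 0.51) and −6.38 (SE 0.63). Glu4 and Lys4 gave −8.00 and −8.18 beside Ser3, and −6.21 and −3.59 beside Thr3. All comparisons share the same parent libraries, so the error of the parent enters each of them.

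Among pairs that differ only in Ser or Thr at position 3, the calls in favour of Thr3 lay mainly at position 4. Over the 39 pairs the Thr3 form was higher in 10 (18.4% of all 8000 pairs) and lower in 5 (7.34% of all). Of the 10, 8 had a substitution at position 4, namely Ala, Ser, Thr, Gln, Asp, Lys, Arg and His, and 2 at position 5, Gly and Asn. RTGG and RSGG were at means of 24.9 and 23.7 RPM at T-1, 7.48 and 44.5 at T0 and 0.732 and 0.730 at T2. RTGN and RSGN were at 33.5 and 30.7 at T-1, 46.6 and 89.2 at T0 and 2.64 and 1.96 at T2. Both calls at position 5 thus count from T0 levels that already differed. The parents RSGV and RTGV differed by −0.43 (SE 0.37, adjusted p = 0.424), Thr3 minus Ser3, which did not pass the test.

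Thr4 gave the largest difference in favour of Thr3. RTTV rose from 40.1, 49.7 and 29.3 RPM at T0 to 156, 113 and 110.3 at T2 while RSTV fell from 129, 77.3 and 95.9 to 7.20, 4.73 and 1.70, a difference of 6.35 (SE 0.55, adjusted p = 0.00127) with 6.12, 5.21 and 7.72 in the 3 screens. Relative to total reads, Ser4 and Ala4 also changed direction with residue 3, though RSSV and RSAV turn positive under the other scalings. RTSV went from 25.5, 53.9 and 46.3 to 167, 190.0 and 197 (5.02, SE 0.68, adjusted p = 0.0042 against RSSV) and RTAV from 67.4, 135 and 95.4 to 297, 376 and 394 (4.51, SE 0.38, adjusted p = 0.00126 against RSAV).

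With Asp, Gln, Lys or Arg at position 4 the change of the Thr3 form from T0 to T2 did not pass the test, while the Ser3 form fell. From T-1 the changes of the Thr3 forms were −0.54 for Gln4, −1.06 for Lys4 and −1.15 for Arg4, and these passed as falls. RTDV held 105, 94.5 and 73.2 RPM at T0 and 94.2, 98.6 and 88.2 at T2, where RSDV went from 83.0, 72.4 and 52.5 to 2.02, 2.07 and 1.14 (5.38, SE 0.37, adjusted p = 0.0012). The other differences were 5.36 (SE 0.53) for Arg4, 5.27 (SE 0.38) for Gln4, 4.54 (SE 0.49) for His4 and 4.16 (SE 0.45) for Lys4. Glu4 stood apart from Asp4, since both of its forms fell. Its difference was 1.35 (SE 0.54, adjusted p = 0.12), which did not pass the test, and from T-1 it was 3.09 and passed.

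The 5 pairs in which Ser3 was the better residue were Tyr5, Phe5, Ser5 and Asp5 and, at position 4, Asn4. RSGY rose from 13.6, 22.4 and 24.4 to 79.9, 62.5 and 92.0 RPM, whereas RTGY fell from 145, 119 and 122 to 2.30, 7.83 and 1.04. Thr3 minus Ser3 was −7.56 (SE 0.71, adjusted p = 0.00156), the largest difference of the 39 pairs. RTNV went from 26.7, 18.7 and 14.4 to 10.1, 6.92 and 6.28, a fall that did not pass the test, while RSNV rose from T0. Their difference was −3.80 (SE 0.44, adjusted p = 0.00265). The change of RTNV was −2.68 from T-1 and −1.42 without screen 3, and both passed as falls. Under the other scalings RTNV turns positive. From T-1 RSNV changed by 0.42, which did not pass the test. RSGF rose from 72.9, 80.9 and 90.7 to 179.8, 191 and 251 and RTGF fell from 75.6, 46.6 and 58.4 to 27.6, 26.2 and 21.1 (−2.59, SE 0.39, adjusted p = 0.00585). In these 3 pairs the sign was the same in each screen. The fall of RTGF itself, −1.25 (SE 0.56, adjusted p = 0.029), was −1.15 without screen 1, −1.46 without screen 2 and −0.95 from T-1, all short of the test. The differences for Ser5 (−2.41, SE 0.41) and Asp5 (−1.97, SE 0.55) were −0.87 and −0.67 from T-1 and then did not pass the test. Without screen 2 the Ser5 call was lost at −2.47, and the Asp5 call was lost without screen 1 (−2.28), 2 (−2.40) or 3 (−1.23).

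The time courses in glucose were not all monotonic. RTQV was at 113, 86.8 and 87.4 RPM at T0, 308, 181 and 209 at T1, 112, 80.8 and 50.1 at T2 and 55.4, 30.2 and 22.8 at T3, highest at T1 in every screen. RTDV likewise went to 165, 176 and 229 at T1 and ended at 68.9, 60.7 and 42.7. Their changes from T0 to T2, −0.30 (SE 0.37) and 0.06 (SE 0.35), did not pass the test, while those from T1 to T3, −2.75 (SE 0.22) and −1.74 (SE 0.23), did. By contrast RSGV was at 273, 306 and 268 at T1 and 701, 823 and 811 at T3. From T1 to T3 in glucose 20 of the 78 variants rose (10.7% of all) and 41 fell (75.4% of all). Under TMM this was 35 and 17.

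In galactose, where LIMK1 is made, the 2 parents parted. RSGV fell from 287, 366 and 321 RPM at T1 to 45.5, 83.6 and 79.2 at T3, while RTGV rose from 679, 519 and 377 to 1963, 1698 and 987. Every T3 value of RSGV lay below its T1 values, and every T3 value of RTGV above. In all, 16 of the 78 variants rose from T1 to T3 (9.72% of all) and 54 fell (80.1% of all). Under TMM these counts were 27 and 18.

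To set galactose against glucose, the log2 change between T1 and T3 in glucose was subtracted from the one in galactose (the LIMK1 effect) and tested as an interaction in edgeR. It was negative in 18 of the 78 variants (9.89% of all) and positive in 4 (3.57% of all), or in 13 and 1 with TMM factors. The glucose and galactose cultures of a screen share their T0 source. The model took each culture, 1 screen in 1 medium, as a block. It had no term for a change over time that both media of a screen share. For RSGV it was −3.73 (SE 0.20, adjusted p = 2.9e-74) and for RTGV 0.00 (SE 0.15, adjusted p = 0.985). Of the 18 Ser3 variants that had risen in glucose, the parent included, 14 had a negative effect and 4 did not pass the test. Of the 18 Thr3 variants that had risen, 1 had a negative effect, 3 had a positive one and 14 did not pass the test. The same shares among all library variants that rose in glucose were not counted. These counts, and those by position below, are therefore not read as particular to the set.

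At position 5 all 8 Ser3 substitutes that rose in glucose had a negative LIMK1 effect. RSGL was lowest, from 211, 98.4 and 87.3 RPM at T1 to 9.41, 11.9 and 7.51 at T3 in galactose, while in glucose it went from 137, 70.5 and 53.1 to 255, 154 and 163 (−4.89, SE 0.36, adjusted p = 3.2e-40). RSGM fell from 295, 253 and 253 to 77.5, 53.4 and 81.2 in galactose (−3.24, SE 0.24, adjusted p = 1.2e-39). The T1 and T3 values of these 2 variants in galactose did not overlap. Cys5 (−4.29, SE 0.47), Thr5 (−4.06, SE 0.32) and Ala5 (−3.95, SE 0.69) lay near RSGV, and Phe5 (−3.09, SE 0.28) and Ile5 (−2.83, SE 0.25) were closer to 0. Tyr5 was the weakest at −1.81 (SE 0.43, adjusted p = 3.1e-04), with −3.80, −1.28 and −0.43 in the screens, and was −0.86 without screen 1 and −2.11 without screen 2, both short of the test. Asp5, which fell in glucose, was also called at −2.61 (SE 0.93, adjusted p = 0.0384), but without screen 1 (−1.55) or screen 3 (−2.19) it did not pass. RSGD had 1, 26 and 0 reads at T3 in galactose in screens 1, 2 and 3, so this call rests on low counts.

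At position 4 the 9 Ser3 substitutes that rose in glucose did not share 1 outcome, with 4 near 0 and 5 negative. RSFV went from 103, 161 and 105 to 191, 274 and 240.3 RPM in galactose and from 95.1, 149 and 135 to 201, 227 and 327 in glucose, a LIMK1 effect of −0.04 (SE 0.24, adjusted p = 0.932). RSWV went from 155, 200.02 and 121 to 283, 373 and 284 in galactose (−0.30, SE 0.23, adjusted p = 0.42). RSLV went from 231, 231 and 242 to 377, 359.9 and 672 (−0.16, SE 0.21, adjusted p = 0.644). All 3 carry Ser3 and rose in galactose in each screen. Ile4 gave 0.04 (SE 0.19).

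Tyr4, Cys4, Asn4 and Val4 behaved otherwise. RSYV fell from 459, 342 and 476 to 59.6, 94.1 and 108 RPM in galactose, −2.64 (SE 0.22, adjusted p = 1.5e-32), where RSFV rose. Phe and Tyr differ by 1 hydroxyl group. RSCV fell from 275, 248 and 252 to 12.03, 40.2 and 16.6 (−3.82, SE 0.26, adjusted p = 6.0e-45) and RSNV from 103, 45.2 and 35.7 to 13.4, 6.28 and 3.43 (−3.56, SE 0.51, adjusted p = 8.5e-11). Val4 and Ile4, which differ by 1 methylene group, were at −3.13 (SE 0.54, adjusted p = 1.8e-07) and 0.04 (SE 0.19, adjusted p = 0.894). Met4 was between, at −0.76 (SE 0.27, adjusted p = 0.0363).

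Set against the parent of the same residue 3, the LIMK1 effect was more positive in 26 of 76 substitutes (44.3% of all variants compared) and more negative in 4 (4.84% of all). Among the 17 Ser3 substitutes that rose in glucose 6 differed from RSGV, by 3.77 (SE 0.38) for Ile4, 3.69 (SE 0.39) for Phe4, 3.57 (SE 0.39) for Leu4, 3.43 (SE 0.42) for Trp4, 2.97 (SE 0.40) for Met4 and 1.89 (SE 0.63, adjusted p = 0.0469) for Tyr5. The other 11 did not pass the test, among them RSGL at −1.17 (SE 0.42, adjusted p = 0.0581) and RSYV at 1.09 (SE 0.41, adjusted p = 0.0677). Of the 26, all with Ser3, 19 had fallen in glucose and reached T3 with few reads in either medium. RSGK, for example, was at 0.978, 2.25 and 0.596 RPM at T3 in glucose and 0.121, 0.641 and 0.245 in galactose. A difference for such a variant rests on low counts in both media, and the part of low counts in the total was not tested.

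Thr3 variants mostly showed no LIMK1 effect that passed the test, but RTYV did. RTYV fell from 372, 381 and 361 to 112, 118 and 108 RPM in galactose and went from 288, 305 and 234 to 259, 236 and 209.8 in glucose, −1.49 (SE 0.22, adjusted p = 4.1e-10), and it differed from RTGV by −1.50 (SE 0.41, adjusted p = 0.0244). All 3 screens lay close together, at −1.58, −1.33 and −1.58. Tyr4 was thus lower under induction beside either residue at position 3. RTGR and RTGW were also called lower but at the limit of detection. RTGR had 0 reads in all 3 galactose libraries at T3, where 3 reads would be 0.182, 0.0802 and 0.245 RPM, and only 0.233, 0.0818 and 0.159 RPM at T1, so no fold is given. RTGW was at 2.89, 1.28 and 1.16 RPM at T1 and 0.243, 0.214 and 0 at T3 in galactose, near the same limit.

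The 4 positive LIMK1 effects were all in Thr3 variants. They were RTGF (1.48, SE 0.52, adjusted p = 0.034), RTIV (0.71, SE 0.24, adjusted p = 0.0246), RTWV (0.66, SE 0.22, adjusted p = 0.0273) and RTGM (0.53, SE 0.16, adjusted p = 0.00743). RTGF fell in both media, from 83.9, 106 and 119 to 8.70, 11.8 and 4.86 RPM in glucose and from 78.1, 47.2 and 103 to 13.5, 12.8 and 23.3 in galactose. RTIV rose in galactose from 133, 176 and 158 to 279, 306 and 309 and RTWV from 133, 218 and 151 to 349, 557 and 419. With 1 screen left out there were 0 to 3 positive calls, and without the culture as a block there were 0. RTIV lost its call with any screen out (0.67 to 0.74), RTWV without screen 1 (0.61) or 3 (0.57) and RTGF without screen 2 (1.59) or 3 (1.01). RTGM was at 1.07, −0.08 and 0.61 in the screens, with 1 of them below 0. Its effect was 0.26 without screen 1 and 0.49 without screen 3, both short of the test.

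Within pairs the LIMK1 effect was more positive with Thr3 than with Ser3 in 11 of 39 (9.40% of all 8000 pairs) and more negative in 0 (0.237% of all). At an unadjusted p under 0.05 the counts were 14 and 1. The parents differed by 3.73 (SE 0.48, adjusted p = 0.0242), with 4.43, 3.27 and 3.50 in the screens. The other 10 were Leu5 (5.06, SE 0.53), Cys5 (4.70, SE 0.44), Phe5 (4.58, SE 0.58), Thr5 (4.47, SE 0.54), Ala5 (4.24, SE 0.63), Met5 (3.77, SE 0.44) and Ile5 (3.00, SE 0.46) and, at position 4, Cys4 (4.10, SE 0.55), Asn4 (3.70, SE 0.61) and Val4 (3.60, SE 0.58). All 11 had the same sign in each screen. With any 2 of the screens 0 pairs were called. For Phe4, Leu4, Ile4 and Trp4 the differences were 0.63 (SE 0.44), 0.39 (SE 0.45), 0.67 (SE 0.44) and 0.96 (SE 0.45), and none passed the test. For Tyr4 it was 1.15 (SE 0.47, adjusted p = 0.197).

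The same scan with the human residue Ala2 was compared variant by variant. Over the 78 matched variants the glucose changes of the Arg2 and Ala2 scans correlated with Pearson's r of 0.94 and the LIMK1 effects with 0.81, across variants that share the same libraries. In glucose Arg2 was higher in 6 (5.75% of all 800 Arg2 and Ala2 pairs) and lower in 3 (4.88% of all). The yeast and human tails, RSGV and ASGV, differed by 0.26 (SE 0.32, adjusted p = 0.605). The 6 were RTSV (3.11, SE 0.48, adjusted p = 0.0334), RTMV (2.48, SE 0.36), RTTV (2.35, SE 0.40), RSCV (2.02, SE 0.36), RTDV (1.97, SE 0.31) and RTAV (1.74, SE 0.34). These shares of the 78 are near those of the library and are not read as a property of the set. RTMV and ATMV changed by 2.57 and 0.09 in glucose, and RTDV and ATDV by 0.06 and −1.91.

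Arg2 was the worse residue in RSGP (−3.51, SE 0.45), RTPV (−2.79, SE 0.49) and RTNV (−2.56, SE 0.33), of which the first 2 carry Pro. From T-1 the difference for RSGP was 0.28, and those for RTTV (0.83) and RSCV (1.22) did not pass the test. All 9 calls had the same sign in every screen, and with any 2 of the screens 0 were made. For the LIMK1 effect 0 of 78 pairs were higher and 0 lower (0% and 0% of all 800), with 3 and 4 at an unadjusted p under 0.05. RSGV and ASGV differed there by −0.62 (SE 0.37, adjusted p = 0.586), RSFV and ASFV by 0.16 (SE 0.35) and RSLV and ASLV by 0.03 (SE 0.36).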

How the data were processed

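Tail codons were amplified from plasmids of each library and sequenced, and the authors deposited read counts per variant in 1 table per screen. These counts were not normalized. The 24 count columns were mapped to the samples by screen and time point, with 0 columns unmapped. The medium was taken from the column headings. The T-1 columns of screens 2 and 3 were placed through the primer indices. The starting plasmid pool was not analysed here. Counts were divided by the total reads of a library (7185497 to 61265998). Changes were fitted over all 16000 variants with edgeR 4.0.16 (quasi-likelihood, total reads as library size, screen as a block). For the LIMK1 effect the block was the culture, 1 screen in 1 medium. Differences between paired variants were fitted with limma 3.58.1 on 1 value per screen (pseudocount 0.5 reads). Benjamini-Hochberg adjustment at 0.05 was made over all variants or pairs. DESeq2 1.42.0, TMM, a filter at 10 reads, pseudocounts 1 and 5, T-1 as the start, T3 as the end, no block and leaving out each screen were alternatives. The block follows the labels, in which a screen number marks 1 culture series. Deviations of T1 and T3 libraries of 1 screen correlated at 0.27, 0.26 and 0.37 in galactose and 0.31, 0.24 and 0.45 in glucose, and those of T0 and glucose T2 at 0.14, −0.09 and −0.04. Scripts were tested on simulated data. Variants named were the parents, the residues the study tested singly or lists for natural cofilins, the 3 highest and 3 lowest in each scan and the 5 largest calls of each kind. RSGN, RSHV, RSIV, RSYV, RTGW and RTYV, and residues given only to complete a scan, were added after their values were seen. The members and lists were chosen with earlier results of these data known.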

Additional observations from a re-analysis of the deposited data

Results flagged for a closer look

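In glucose 11 of the 78 variants had a positive log2 change from T0 to T1 and a negative one from T1 to T2 in all 3 screens (14.1%), as did 11.8% of all 16000 variants. The later log2 change minus the earlier one was −3.99 for RSGS, −2.90 for RTKV, −2.82 for RTGF, −2.82 for RTQV, −2.80 for RSGY and −2.43 for RTHV, and −2.43 for RTRV, −2.20 for RTGA, −2.07 for RTDV, −1.63 for RSVV and −1.50 for RTVV. RSGS, with Ser in place of Val5, turned most, from 1.75 ± 0.50 (SD, n = 3) in the first interval to −2.24 ± 1.14 in the second. Most of the others carry Thr3. The difference between intervals was not tested.

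Between the next 2 intervals, T1 to T2 and T2 to T3, 3 variants went from a positive to a negative change in all screens (1.69% of all variants did), with differences of −0.59 for RTCV, −0.51 for RTAV and −0.49 for RTIV. Another 3 variants with a basic residue went from a negative to a positive change (7.12% of all did), with 3.74 for RSRV, 3.00 for RTGK and 1.24 for RTGR. RSRV changed by −3.13 ± 1.15 and then by 0.61 ± 0.71, and at T2 and T3 all of these basic variants had few reads, with RSRV at 1.48, 2.68 and 0.520 RPM at T2. These differences were not tested either.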

How the results depend on the processing

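Filtering low counts and changing the pseudocount from 0.5 to 1 or 5 reads moved no count of calls among the 78 variants beyond 1.5 times. Other scalings changed the counts that are set against total reads. With TMM, DESeq2 size factors, scaling to charged residues at position 5 and the DESeq2 Wald test, 23, 14, 10 and 16 variants fell in glucose in place of 35, and 1, 2, 1 and 10 had a positive LIMK1 effect in place of 4. With TMM, DESeq2 size factors and the Wald test, 27, 28 and 28 rose and 18, 13 and 11 fell in galactose from T1 to T3, and in glucose 35, 36 and 39 rose and 17, 13 and 14 fell. The glucose change turned positive with TMM for RSAV 0.26, RSGS 2.38, RSSV 0.10, RTGA 2.80, RTGF 1.63, RTKV 2.30, RTNV 1.54, RTQV 2.58 and RTRV 2.65, with DESeq2 size factors for RSAV 1.38, RSGD 0.20, RSGS 3.51, RSPV 0.89, RSSV 1.25, RTEV 0.79, RTGA 3.89, RTGF 2.75, RTGS 1.10, RTKV 3.42, RTNV 2.65, RTPV 0.63, RTQV 3.70 and RTRV 3.77, with the Wald test for RSAV 1.38, RSGD 0.20, RSGS 3.51, RSPV 0.89, RSSV 1.25, RTEV 0.79, RTGA 3.89, RTGF 2.75, RTGS 1.09, RTKV 3.42, RTNV 2.65, RTPV 0.64, RTQV 3.70 and RTRV 3.77, and with the charged scaling for RSAV 1.84, RSGD 0.66, RSGS 3.96, RSPV 1.36, RSSV 1.70, RTEV 1.25, RTGA 4.36, RTGE 0.15, RTGF 3.21, RTGR 0.069, RTGS 1.55, RTKV 3.88, RTNV 3.11, RTPV 1.09, RTQV 4.16 and RTRV 4.22. The first 3 scalings raise every glucose change by a similar amount, which turns these signs. Only variants named by the rule were checked, so the lists do not cover the other members. The cause of the changed LIMK1 counts was not tested.

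From T0 to T3, 10 LIMK1 effects were positive and 32 negative, and that of RSLV was 0.52. From T-1 to T2, chosen after seeing the data for the paired comparisons, Thr3 was lower in 3 pairs, RSGA changed by −0.10 in glucose and the Arg2 minus Ala2 difference of RSGP was 0.28. The cause was not tested. Without the block, 0 LIMK1 effects were positive and 2 substitutions were more negative than the parent, and 20 of 22 counts stayed within 1.5 times. Leaving out 1 screen gave 0 to 3 positive LIMK1 effects, 2 to 3 substitutions more negative than the parent, 3 to 5 pairs lower with Thr3 in glucose, 0 to 0 pairs higher with Thr3 in the LIMK1 effect, and 0 to 0 higher and 0 to 0 lower with Arg2 in glucose. With 2 screens fewer degrees of freedom are left.

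Reads limit the lower end, since variants under 3 reads in a library have no measured order there. Intervals between screens cover growth, sampling and sequencing together. PCR reads are not independent molecules, and whether molecular identifiers were used is not given in the sources used here. The 3 screens share 1 transformation, and sugar and LIMK1 cannot be told apart. The Thr3 forms are different tails, and some of them also differed from their Ser3 forms in glucose.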
